A study of Mus musculus with 9 samples.

Results

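Semaphorins are guidance ligands, and plexins and neuropilins are their receptors. Class 3 semaphorins are secreted and mostly bind a neuropilin, which has no signalling domain of its own and works with an A-type plexin. Classes 4 to 6 are membrane proteins that bind plexins directly, and class 7 is held by a lipid anchor and binds plexin C1. The plexin tail carries a GTPase-activating domain that acts on small Ras-family proteins and so loosens adhesion and the cytoskeleton, while neuropilins also serve as co-receptors for VEGF. In the developing kidney the system is known from branching of the ureteric bud, from vessels and from podocytes.

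All genes named Sema3 to Sema7, Plxn or Nrp with a single symbol in the platform annotation were taken, which gave 31 genes: 20 semaphorins, 9 plexins and 2 neuropilins. They had 78 of the 45101 probe sets on the array, and the brightest probe set of a gene, by mean signal over the 9 arrays, stood for it. The family was chosen with earlier results of these data known, and the rule itself used gene names and that mean signal. Signals are the deposited linear intensities, and differences are mutant minus wild type on the log2(signal + 42.41) scale after quantile normalisation, which understates the change of dim genes.

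The samples were renal vesicles, the first epithelial stage of the nephron, cut by laser from mouse kidneys at E12.5. There were 5 wild-type and 4 Lim1 mutant samples, labelled as biologically independent, each a pool of about 30 to 50 vesicles. Lim1, now called Lhx1, is a homeodomain protein with LIM zinc fingers that switches genes on in early nephron epithelia. The sources used here do not give the allele, the strain, whether the gene was removed from all cells or how many embryos went into a pool.

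Array medians ranged from 144 to 195, and wild-type arrays 3 and 1 correlated least with the others (mean r of 0.783 and 0.802, against 0.826 to 0.864). Of the 9 renal vesicle markers all were measured above the filter on dim probe sets, among them Jag1 (36687 and 23653, wild-type and mutant mean signals) and Wnt4 (28137 and 27893). At the brightest probe set of each gene, differences were above 0 for 4 and below 0 for 5. The median was -0.32, and none of these probe sets was called. Jag1 and Dll1 (9593 and 3368) had an unadjusted limma p under 0.05 (2 of 9, 22.2%, against 6.67% of all probe sets tested), both lower in the mutants. The dimmer Lhx1 probe set read 2327 to 17587 in the wild type and 6.88 to 10.5 in the mutants. It was called, with a difference of -6.64 ± 0.57 (limma adjusted p = 0.00329). The brighter one read 1696 to 18555 and 4108 to 4951 and was not called (-0.86 ± 0.58, limma adjusted p = 0.833). Marker lists of other cells were summed on each array, and the sums were not tested. The summed signal of 12 endothelial markers was 14267 to 29170 in the wild type and 4444 to 7140 in the mutants. All 10 tested had differences below 0, with a median of -0.81, and Cldn5 was the only one called (limma adjusted p = 0.0045). Without Cldn5 the endothelial sums overlapped, at 4675, 6016, 19925, 15184 and 5073 on wild-type arrays 1 to 5 and 3835 to 5812 on mutant arrays. The endothelial markers Pecam1 and Tie1 were below the filter. The sum over 10 ureteric bud markers was 17201 to 79280 and 7862 to 18266, with Hoxb7 and Gata3 below the filter. Calb1 made up 39640 of the highest sum. Of the 8 tested, 7 had differences below 0, and Emx2 was lower in the mutants without overlap (-2.16 ± 0.50, limma adjusted p = 0.387). Gata3 read 471, 767, 2141, 15 and 25.8 on wild-type arrays 1 to 5 and 4.44 to 10.7 on mutant arrays. The sum over 8 stroma markers was 16610 to 121670 and 18560 to 34607. Of 8 neural markers 5 were measured (Tubb3 below the filter), and of 8 macrophage markers 7 (Aif1 below). Wild-type array 3 had the highest sums, 4561 (neural) and 18367 (macrophage), where no other array exceeded 1458 and 3760. Single genes made up much of both, with Csf1r at 16543 and Th at 2267 on that array. The median log2 deviation of the tested macrophage markers was 0.82 there, close to 0.80 on mutant array 3. For the tested neural markers it was 1.19 there, and the next highest was 0.43 on wild-type array 1.

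No semaphorin, plexin or neuropilin passed the test. Of the 31 genes, 28 passed the filter and were tested (18 semaphorins, 8 plexins and 2 neuropilins), and none reached an adjusted p of 0.05 over all 27022 probe sets (0.0333% of those did so). The lowest adjusted p among them was 0.696. A p that misses the threshold does not show that the genes were alike, and each difference is plotted with its 95% interval. Of the 28, 5 (17.9%) had an unadjusted limma p under 0.05, where 6.67% of all probe sets tested did. Sema5b and Sema6d had the higher mean in the mutants (2 of 28, against 3.8% of all probe sets), and Sema4f, Nrp2 and Plxnc1 the lower (3 of 28, against 2.87%). Groups did not overlap at 2 of the 28, Sema5b and Nrp2, against 2.25% of all probe sets. Over all 78 probe sets 47 were tested, none was called, and the same 5 probe sets were the ones under 0.05. The 6.67% counts every tested probe set and not 1 per gene, so 5 of 47 is the count in its unit. The count of 5 fell to 2 without wild-type array 3 or without mutant array 3, to 3 without wild-type array 5, mutant array 1 or mutant array 2, and to 1, Sema5b, without wild-type arrays 1 and 3.

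**Figure D1:**
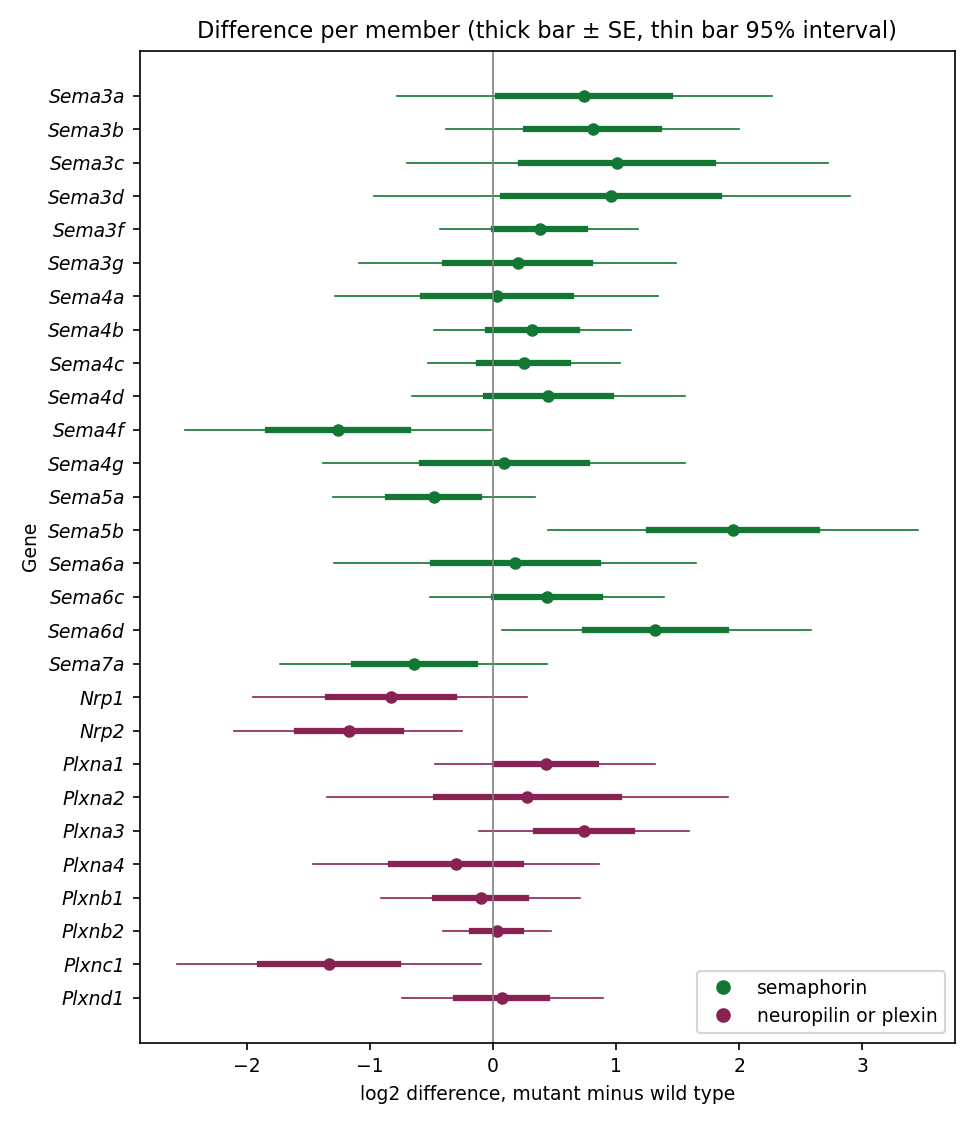
Log2 difference, mutant minus wild type, for each of the 28 tested genes (vertical axis), with semaphorins in green and neuropilins and plexins in purple. Points are limma estimates, thick bars ± SE and thin bars 95% intervals. The interval lies above 0 for Sema5b and Sema6d, below 0 for Sema4f, Nrp2 and Plxnc1, and spans 0 for the other 23.

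Sema5b had the largest difference in the set. It encodes a transmembrane semaphorin with thrombospondin repeats, known as a repellent cue for growing axons. On wild-type arrays 1 to 5 its signals were 101, 558, 1110, 1434 and 746, and on mutant arrays 1 to 4 they were 5666, 2785, 1462 and 1495. Every mutant lay above every wild-type array, but the margin was narrow: wild-type array 4 and mutant array 3 were next to each other, while wild-type array 1 was far below and mutant array 1 far above. The means were 790 ± 511 (SD, n = 5) and 2852 ± 1974 (n = 4). The log2 difference was 1.95 ± 0.68 (SE; limma p = 0.0153, adjusted p = 0.696, exact permutation p = 0.0159, two-sided). Without wild-type array 1 it was 1.40, and without mutant array 1 it was 1.56 with an unadjusted limma p of 0.0573.

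The other Sema5b probe set barely shared the difference. It read 239 to 469 in the wild type and 350 to 656 in the mutants, groups that overlapped, with a difference of 0.25 ± 0.41. With both probe sets averaged the Sema5b difference was 1.10, its unadjusted limma p was above 0.05, and its groups overlapped.

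The stretch upstream of Sema5b is shown because this gene and Nrp2 were those whose groups did not overlap, and Lhx1 belongs to the homeodomain family, whose sites commonly hold the letters TAAT. The sequence below is the 250 bases before the annotated start (RefSeq, GRCm38.p6, chr16:35541112-35541361, plus strand), 5′ to 3′. Capitals would mark TAAT on either strand (TAAT or ATTA), and there are none.
Sema5b: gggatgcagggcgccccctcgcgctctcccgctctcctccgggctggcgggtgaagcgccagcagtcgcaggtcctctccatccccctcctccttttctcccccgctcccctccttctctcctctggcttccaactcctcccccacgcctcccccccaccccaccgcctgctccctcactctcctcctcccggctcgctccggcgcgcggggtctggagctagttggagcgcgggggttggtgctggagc
This stretch is 72% G and C and holds 19 CpG dinucleotides, where the medians over 32851 such RefSeq windows were 52.4% and 6.

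Its relative Sema5a, which has the same domain make-up and is known for both attraction and repulsion, went the other way in sign. Signals were 5187, 3070, 2364, 3870 and 2668 in the wild type and 4073, 2655, 1583 and 1710 in the mutants. The groups overlapped, with mutant arrays 3 and 4 lowest. The difference was -0.48 ± 0.37 (95% interval -1.30 to 0.34), and the other tested Sema5a probe set, which swung between 2.88 and 1506 within the wild type, gave -0.23 ± 1.26.

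Class 6 semaphorins are transmembrane ligands of A-type plexins, and Sema6d, a ligand of plexin A1, had the largest difference among them. Its signals were 1255, 2009, 236, 1522 and 999 in the wild type and 3856, 4036, 2237 and 1385 in the mutants. Mutant arrays 1, 2 and 3 were above every wild-type array, mutant array 4 was within the wild-type range, and wild-type array 3 was far below the rest. The difference was 1.32 ± 0.57 (limma p = 0.0407, adjusted p = 0.737, exact permutation p = 0.0635), and it ranged from 0.87 (without wild-type array 3) to 1.65 (without mutant array 4) with single arrays left out. In 5 of those 9 fits its unadjusted limma p was 0.05 or above, up to 0.113. The other tested Sema6d probe set gave 0.78 ± 0.57, where mutant array 2 read 711 and the 8 other arrays 43.6 to 157. Sema6a (0.18 ± 0.67, 95% interval -1.29 to 1.65) and Sema6c (0.44 ± 0.43) had differences smaller than or close to their errors, and Sema6b was below the filter, at 91.1 and 158.

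Class 4 semaphorins are transmembrane ligands best known through B-type plexins. Only Sema4f among its 6 genes, all tested, had an unadjusted p under 0.05. Sema4f signals were 1491, 909, 6304, 4111 and 2191 in the wild type and 1574, 612, 1130 and 881 in the mutants. Wild-type arrays 3, 4 and 5 stood above all mutants, while wild-type arrays 1 and 2 lay within the mutant range. The difference was -1.26 ± 0.57 (limma p = 0.0475, adjusted p = 0.748, exact permutation p = 0.0714), and it ranged from -1.63 (without wild-type array 2) to -0.91 (without wild-type array 3) with single arrays left out. In 6 of the 9 fits that each leave out an array its unadjusted limma p was 0.05 or above, up to 0.12. This probe set carries the suffix that Affymetrix gives where probes may also match other transcripts, and the other Sema4f probe set, without that suffix, gave -0.59 ± 0.49. The main probe sets of Sema3f and Sema4a carry the same suffix.

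The other class 4 genes had differences from 0.03 (Sema4a) to 0.45 (Sema4d), each under its standard error. Sema4d, the classical ligand of plexin B1, read 430 to 2018 in the wild type and 892 to 2420 in the mutants. Sema4c, a ligand of plexin B2, read 3259 to 7166 and 3470 to 7091, with a difference of 0.25 ± 0.36. Sema4b (0.32 ± 0.36) and Sema4g (0.09 ± 0.67) were the remaining members of the class.

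All 6 tested class 3 semaphorins had differences above 0, with a median of 0.78, and none was under an unadjusted p of 0.05 in limma. Over all probe sets tested 52.7% were above 0, and the median was 0.03. The 6 genes were Sema3c (1.01), Sema3d (0.96), Sema3b (0.81), Sema3a (0.74), Sema3f (0.38) and Sema3g (0.20). Wild-type array 1 bore on this: it was the lowest of the 9 arrays for Sema3a, Sema3b and Sema3c, and the class median was 0.35 without it. Without wild-type array 4, and without mutant array 3, 5 of the 6 were above 0. The seventh, Sema3e, a ligand that binds plexin D1 without a neuropilin, was below the filter at 82.4 and 41.2.

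Sema3a, the founding repellent that acts through neuropilin 1, had signals of 306, 1828, 4088, 539 and 2071 in the wild type. The mutants read 1019, 2277, 2411 and 3561. The wild-type range held all 4 mutants, and the difference was 0.74 ± 0.70 (95% interval -0.78 to 2.27), from 0.34 without wild-type array 1 to 1.16 without wild-type array 3. Its other tested probe set gave 0.61 ± 0.85.

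Sema3c, which uses either neuropilin, read 175, 4814, 4572, 2161 and 2481 in the wild type and 4943, 4584, 5000 and 2110 in the mutants. Wild-type array 1 was an order of magnitude below the other wild-type arrays, and without it the difference of 1.01 ± 0.78 became 0.25. Its dimmer probe set gave 0.13 ± 0.78.

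Sema3d, a secreted ligand known from vessel patterning, was the most uneven. It read 170, 1523, 127, 50.8 and 24.7 in the wild type and 1158, 136, 197 and 579 in the mutants. Wild-type array 2 was the highest of all, and the groups overlapped over nearly their whole range. The difference was 0.96 ± 0.88, and it ranged from 0.47 without mutant array 1 to 1.67 without wild-type array 2.

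Sema3f, the main ligand of neuropilin 2, was steadier. Signals were 1383, 1267, 1951, 1465 and 1866 in the wild type and 1459, 3352, 2035 and 1717 in the mutants, so that only mutant arrays 2 and 3 exceeded the wild-type range. The difference was 0.38 ± 0.37 (95% interval -0.43 to 1.18), or 0.13 without mutant array 2, and its other 2 probe sets gave 0.60 ± 0.62 and 0.60 ± 0.44. Sema3g, a ligand known from vessels, read 229, 518, 373, 163 and 564, and in the mutants 212, 571, 1013 and 255. Only mutant array 3 exceeded the wild-type range, and the difference was 0.20 ± 0.59.

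**Figure D2:**
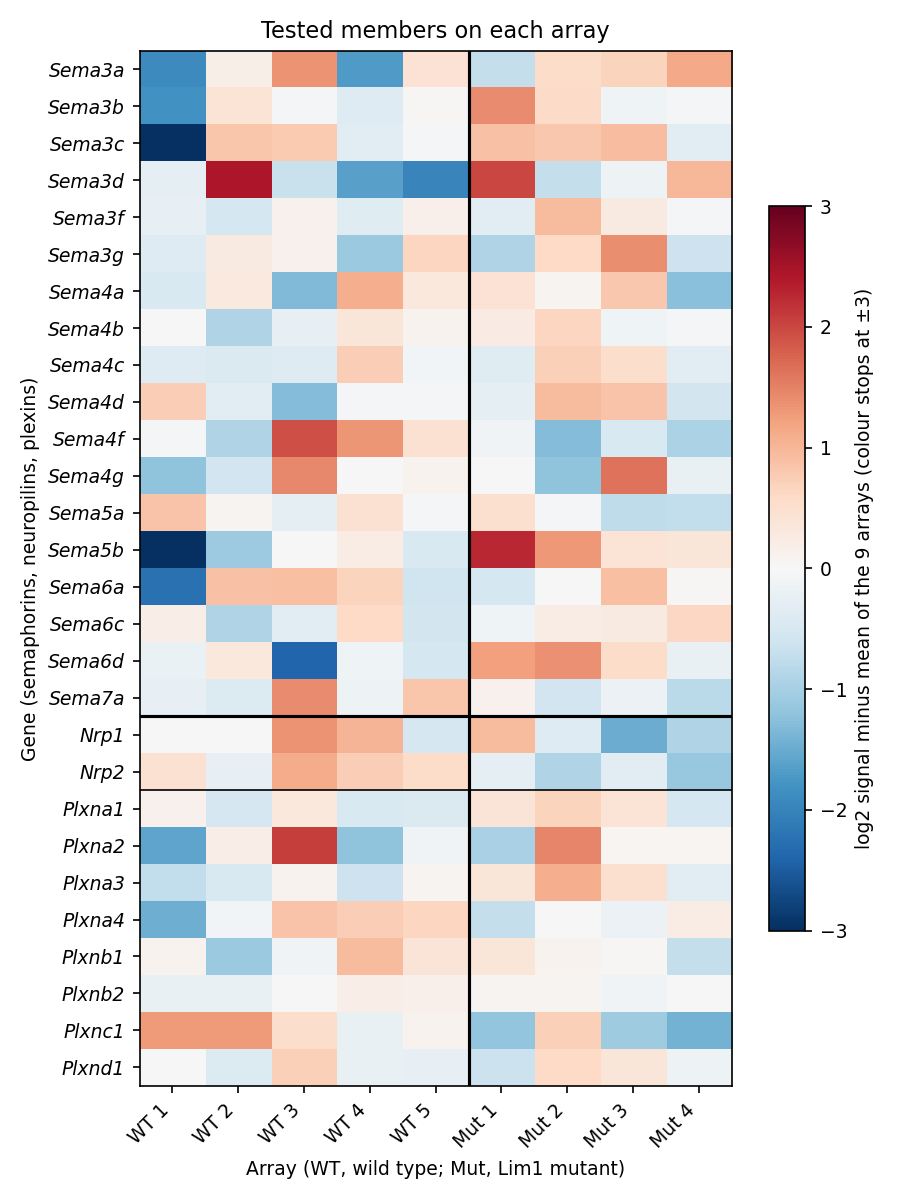
Deviation of each tested gene's log2 signal from its mean over the 9 arrays, for semaphorins (top block), neuropilins and plexins, with wild-type arrays left of the vertical line and mutant arrays right of it. Wild-type array 1 is the bluest column at Sema3a, Sema3b, Sema3c, Sema5b and Sema6a, and wild-type array 3 is red at Nrp1, Nrp2, Plxna2 and Sema4f.

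Both neuropilins had differences below 0 at their main probe sets, and Nrp2 was the one with an unadjusted limma p under 0.05. Nrp2, the receptor for Sema3f and co-receptor for VEGF-C, read 1154.8, 811.5, 2043.7, 1610.5 and 1245.9 in the wild type and 811.5, 451.3, 679.5 and 438.0 in the mutants. Mutant array 1 and wild-type array 2 had the same deposited signal, and after quantile normalisation they were at 9.61 and 9.64 on the log2 scale, which is all that kept the groups apart. The means were 1373 ± 470 (SD, n = 5) and 595 ± 182 (n = 4). The difference was -1.17 ± 0.42 (limma p = 0.017, adjusted p = 0.696, exact permutation p = 0.0159), and it ranged from -1.38 to -1.01 with single arrays left out. Without wild-type arrays 1 and 3 it was -0.96, and its unadjusted limma p was then above 0.05.

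The other tested Nrp2 probe set pointed the opposite way. It was dim, at 96.2 to 260 in the wild type and 161 to 283 in the mutants, with a difference of 0.40 ± 0.40. Averaging both gave -0.39, which was not under an unadjusted limma p of 0.05.

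The 250 bases before the annotated Nrp2 start (RefSeq, GRCm38.p6, chr1:62703067-62703316, plus strand) are shown for the same reason as those of Sema5b, 5′ to 3′, with TAAT on either strand in capitals.
Nrp2: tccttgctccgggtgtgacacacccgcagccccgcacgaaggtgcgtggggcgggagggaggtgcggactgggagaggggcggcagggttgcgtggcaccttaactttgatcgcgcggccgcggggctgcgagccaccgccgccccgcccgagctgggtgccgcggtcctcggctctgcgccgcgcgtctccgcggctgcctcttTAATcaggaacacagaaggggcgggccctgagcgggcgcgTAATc
The stretch holds TAAT 2 times, is 72.4% G and C and has 32 CpG dinucleotides. Promoter windows were found for 26 of the 31 genes, 37 windows in all, of which 14 (37.8%) held TAAT or ATTA, against 54.9% of all windows. The longer palindrome TAATTA, which contains both, was in none of the 37 and in 4.84% of all windows. These are letter matches and not measured binding.

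Nrp1, the receptor for Sema3a and co-receptor for VEGF-A, read 7512, 7580, 19581, 14778 and 5393 in the wild type and 13989, 5672, 2543 and 3997 in the mutants. Wild-type arrays 3 and 4 were highest, yet mutant array 1 was next to them, and the groups overlapped. The difference was -0.83 ± 0.51 (95% interval -1.95 to 0.28, limma adjusted p = 0.811), and it ranged from -1.31 without mutant array 1 to -0.49 without mutant array 3. All 4 tested Nrp1 probe sets had differences below 0, from -1.68 to -0.10.

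Endothelial markers were highest on the same wild-type arrays. The level of the 10 tested endothelial markers, taken as their median log2 deviation on an array, was 1.60 on wild-type array 3 and 0.94 on array 4, where Nrp1 and Nrp2 were also highest of the wild type. Wild-type arrays 1, 2 and 5 were at -0.01, 0.24 and -0.57, and the mutants at -0.93 to 0.05, so that the groups overlapped. Mutant array 1, with a Nrp1 signal of 13989, had an endothelial level of -0.56. In these pools fewer cells of a type and less RNA per cell cannot be told apart. The part of endothelial or stroma cells in the neuropilin differences was not tested.

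**Figure D3:**
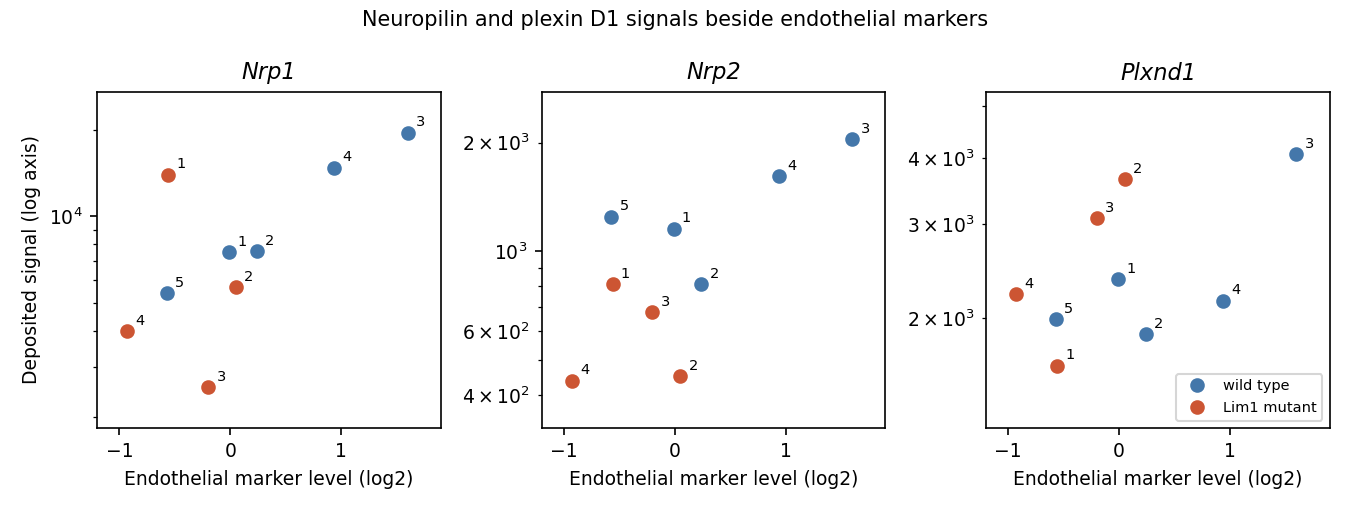
Deposited signals (log axis) of Nrp1, Nrp2 and Plxnd1 on each array against the level of 10 endothelial markers on that array, with wild-type arrays in blue, mutant arrays in orange and array numbers beside the points. Wild-type arrays 3 and 4 lie top right for Nrp1 and Nrp2, and mutant array 1 is high for Nrp1 at an endothelial level of -0.56.

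Of the 8 tested plexins, Plxnc1 alone had an unadjusted limma p under 0.05. Plxnc1, the receptor for Sema7a, read 1366, 1522, 832, 581 and 568 in the wild type and 268, 935, 241 and 207 in the mutants. Mutant arrays 1, 3 and 4 were below every wild-type array, and mutant array 2 stood within the wild-type range. The difference was -1.33 ± 0.56 (limma p = 0.037, adjusted p = 0.735, exact permutation p = 0.0635), and it ranged from -1.82 (without mutant array 2) to -1.11 (without mutant array 4) with single arrays left out. In 6 of those 9 fits its unadjusted limma p was 0.05 or above, up to 0.104. Its other 5 probe sets were below the filter. Sema7a itself read 163 to 626 in the wild type and 114 to 288 in the mutants, with a difference of -0.64 ± 0.49.

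Plxnd1 encodes plexin D1, a receptor best known from endothelium, and its groups overlapped. Plxnd1 read 2371, 1869, 4065, 2158 and 1993 in the wild type and 1628, 3644, 3078 and 2218 in the mutants, with wild-type array 3 highest and mutant array 1 lowest. The difference was 0.07 ± 0.37 (95% interval -0.74 to 0.89).

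Of the B-type plexins, receptors for class 4 semaphorins, Plxnb2 had the smallest standard error among the 28 tested genes. It read 7094, 7157, 8240, 9199 and 9515 in the wild type and 8598, 8606, 7673 and 8129 in the mutants, all of which fell inside the wild-type range. The difference was 0.03 ± 0.20, with a 95% interval from -0.41 to 0.47. Plxnb1 read 6645 to 25799 and 8386 to 17101, with a difference of -0.10 ± 0.37 at its main probe set and 0.49 ± 0.33 at the other. Plxnb3, a receptor for Sema5a, was below the filter at 141 and 78.5.

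A-type plexins, the signalling partners of neuropilins, had differences of 0.74 ± 0.39 (Plxna3), 0.43 ± 0.41 (Plxna1), 0.28 ± 0.74 (Plxna2) and -0.30 ± 0.53 (Plxna4). Plxna3, which works with neuropilin 2 for Sema3f, read 893 to 1830 in the wild type and 1392 to 3536 in the mutants. Of its mutants, array 4 alone lay inside the wild-type range. The same held for Plxna1. Leaving that array out therefore had to part the groups of both genes, and their lack of overlap without it shows nothing further. With all arrays the unadjusted limma p was 0.0831 for Plxna3 and 0.316 for Plxna1.

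**Figure D4:**
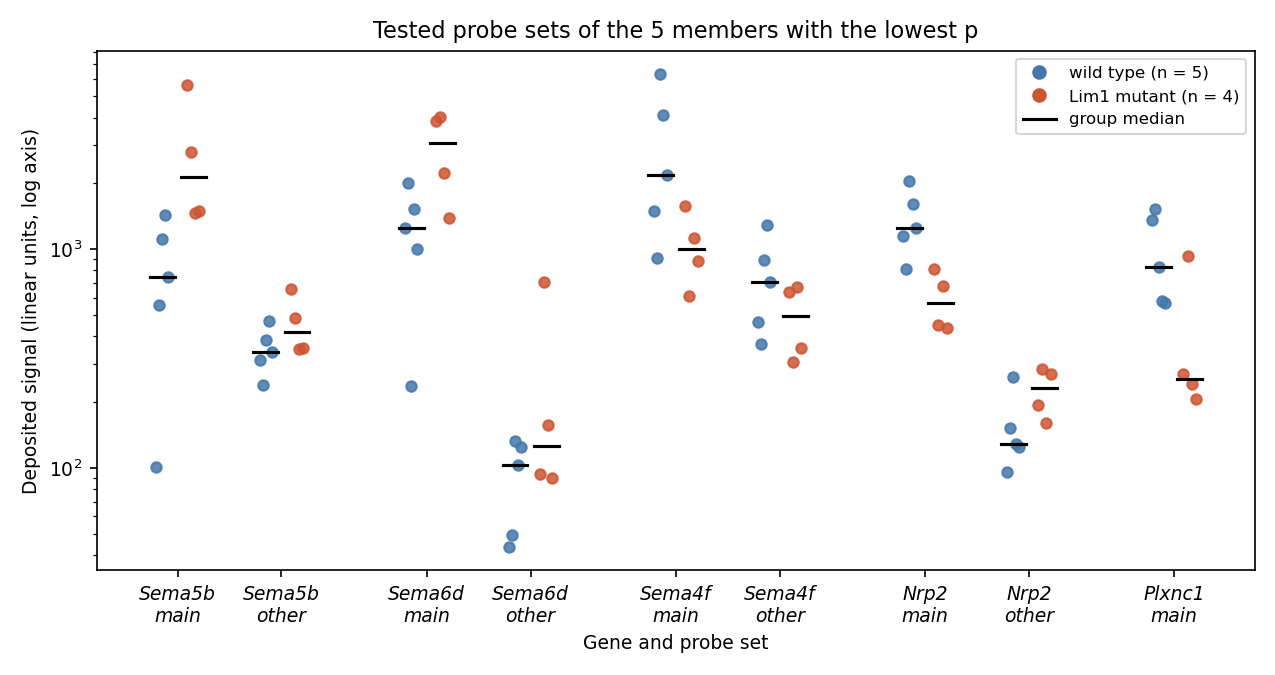
Deposited signals (log axis) on each array for the tested probe sets of Sema5b, Sema6d, Sema4f, Nrp2 and Plxnc1, with wild-type arrays in blue, mutant arrays in orange and black lines for group medians. The main probe set of each gene is the one with the highest mean, and at the other Nrp2 probe set the mutant points sit higher than at the main one relative to the wild type.

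Ligands and receptors are given side by side. Of the 18 tested semaphorins 15 (83.3%) had differences above 0, with a median of 0.35, and of the 10 tested receptors 5 (50%), with a median of -0.03. With arrays centred on their medians the counts were 14 of 18 and 3 of 10. Without wild-type array 1, 12 of 18 semaphorins were above 0, and without mutant array 3, 11 of 18. The difference between ligands and receptors was not tested. By array, the median semaphorin deviation was -0.32 to -0.01 in the wild type and 0.07, 0.56, 0.47 and -0.23 on mutant arrays 1 to 4, so that mutant array 4 lay within the wild-type range. For receptors it was -0.24 to 0.63 and -0.42 to 0.35. Wild-type array 1 held the lowest value of all 9 arrays at 9 of the 28 genes, and wild-type array 3 the highest at 8.

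Ligands and their known receptors can be read together. The Nrp2 difference of -1.17 at the main probe set (0.40 at the other tested one) stood beside 0.38 for its ligand Sema3f and 0.74 for Plxna3. Nrp1 at -0.83 stood beside Sema3a at 0.74. Sema7a and Plxnc1 were both below 0 (-0.64 and -1.33). Sema6d and Plxna1 were both above 0 (1.32 and 0.43), and so were Sema4c and Plxnb2 (0.25 and 0.03). Sema4d and Plxnb1 had opposite signs (0.45 and -0.10). The signs of Plxnb1 and Plxnb2 turned under some of the alternatives. None of these genes passed the adjusted threshold in limma.

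Probe sets of one gene often disagreed, which bears on each single value. Of 16 genes with more than one tested probe set, 11 had all of them on the same side of 0 and 5 did not: Nrp2, Plxnb1, Sema3b, Sema6a and Sema6c. Over the 28 genes together the spread within groups was like that of other probe sets, but semaphorins varied more than receptors. The median SD of log2 signals over the 28 genes was 0.76 over wild-type and 0.59 over mutant arrays, and for all probe sets tested 0.73 and 0.58. It was 0.89 and 0.66 for semaphorins (1.14 and 0.75 in class 3), and 0.59 and 0.54 for receptors.

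Genes that act with the receptors showed no called change in limma either. Of 8 VEGF ligands and receptors that share neuropilins, 4 had differences above 0 and 4 below, with a median of -0.03. Over all probe sets tested 6.67% had an unadjusted limma p under 0.05, and 1 of these 8 genes did. That was Vegfc, a lymphatic growth factor that binds neuropilin 2, with a wild-type mean of 6591 ± 2756 (SD, n = 5) and a mutant mean of 11124 ± 2069 (n = 4). Its difference was 0.88 ± 0.38 (limma adjusted p = 0.737), at a probe set with the same suffix as the main one of Sema4f. The sign was opposite to that of the main Nrp2 probe set and the same as that of the other tested one (0.40 ± 0.40). The VEGF receptors Kdr, Flt1 and Flt4 had values of -1.24 ± 0.93, -0.97 ± 0.80 and -1.02 ± 0.59.

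Of 13 co-receptors and further semaphorin receptors, such as L1cam, Met and Itgb1, 10 were tested, with 5 differences above 0 and 5 below, a median of -0.01 and no unadjusted p under 0.05. Met, a partner of B-type plexins, was at 6259 and 6272. Of 33 listed intracellular effectors 31 were measured and 30 tested, 15 above 0 and 15 below, with a median of 0.01. Rras, a small GTPase that plexins switch off, was the one under an unadjusted p of 0.05 (3.33% of those tested, against 6.67% of all probe sets). Its means were 568 ± 222 for wild-type and 259 ± 188 for mutant arrays (-1.30 ± 0.57, limma adjusted p = 0.737).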

How the data were processed

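The authors deposited 1 linear intensity per probe set and array for 9 Affymetrix arrays, from RNA amplified in 2 rounds per the labels' protocols. Intensities came from GCOS, per the submitters' processing notes; the sources used here give neither its algorithm nor its version. Each array's 2% trimmed mean was 1500, so arrays had been scaled before deposit. Of 45101 probe sets 34958 had 1 gene symbol, 932 several and 9211 none. Values were transformed as log2(value + 42.41), the 25th percentile, and quantile normalised because array medians ranged over 0.349. The 64 control probe sets were left out. The 27022 probe sets with a mean at or above the 40th percentile (a signal of about 102) were tested with limma 3.58.1 in R 4.3.3 (group as the only term, eBayes with a trend, two-sided, Benjamini-Hochberg over all). Sema6b, at a mean log2 of 7.17, lay just outside the filter, and Plxna2, at 7.59, just inside. Permutation tests enumerated 126 splits. P values measure the spread between these samples, and the number of arrays limits their precision.

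Members, lists and tests were chosen with earlier results of these data known. Described in full were genes with an unadjusted p under 0.05, those without overlap, the 8 largest differences, and Nrp1, Nrp2, Plxnb2, Plxnd1, Sema3a, Sema3c, Sema3f and Sema3g. Pathway genes were named with an unadjusted p under 0.05, and the VEGF receptors, L1cam, Met and Itgb1 after their values were seen. On simulated arrays of this size the fit missed most changes as large as those of the members, so a lack of calls does not show a lack of change. Cap mesenchyme markers, also listed, summed to 10227 to 25346 in the wild type and 11878 to 21645 in the mutants. Of the 6 tested, 3 had differences above 0 and 3 below, with a median of 0.03. Meox1 was higher in the mutants without overlap (2.18 ± 0.71, limma adjusted p = 0.668), and Six2 differed by 0.88 ± 0.40 (limma adjusted p = 0.748). Osr1 was at -1.26 ± 0.63, Crym at -0.43 ± 0.33 and Eya1 at -0.13 ± 0.46. These genes, and Dll1, Emx2, Gata3, Calb1, Th and Csf1r above, were named after their values were seen. Alternatives covered normalisation, filter, pseudocount, variance model, array weights, probe sets, replicate block and left-out arrays.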

Additional observations from a re-analysis of the deposited data

Results flagged for a closer look

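Within the 62 groups of values examined (31 genes in 2 groups), 4 held an array that stood apart by Dixon's test. About 1 group in 20 does so by chance, which is 3.1 groups here. Plxnc1 read 935 on mutant array 2, against 207 to 268 on the other mutants. Sema3c read 175 on wild-type array 1, against 2161 to 4814 on the other wild-type arrays. Sema3c also read 2110 on mutant array 4, against 4584 to 5000 on the other mutants. Sema4c read 7166 on wild-type array 4, against 3259 to 4088 on the other wild-type arrays.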

How the results depend on the processing

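No member passed an adjusted p of 0.05 in limma under any of the 20 alternatives, where the lowest adjusted p was 0.508 (Sema5b). The median differences stayed within 1 SD of the array-to-array level, from 0.21 to 0.48 for semaphorins and from -0.19 to 0.08 for receptors with single arrays left out. Over all probe sets the count of 9 called was 3 to 8 with single arrays left out and 0 without wild-type arrays 1 and 3. The count of 5 members with an unadjusted p under 0.05 was 2 to 5 with single arrays left out, 1 (Sema5b) without wild-type arrays 1 and 3, and 1 (Plxnc1) with probe sets averaged per gene. Members without overlap numbered 2 to 5 with single arrays left out, 1 without normalisation between arrays and 0 with probe sets averaged. Fewer arrays make a lack of overlap easier to reach for any probe set. The share over all probe sets is not given for these settings, so the counts cannot be set against 2.25%. Replicate numbers did not pair the samples (correlations of -0.105 to 0.0537). With the replicate block 0 probe sets were called, 3 members had an unadjusted p under 0.05 and 0 neuropilin partners did.

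The counts for the pathway lists under the alternatives were chosen after seeing the data. Neuropilin partners under an unadjusted p of 0.05 numbered 0 with arrays centred on the median and without a variance trend, and 0 to 2 with single arrays left out. Intracellular effectors numbered 0 without normalisation, 0 with median centring, 3 without a variance trend and 0 to 2 with single arrays left out. Co-receptors numbered 1 without wild-type arrays 1 and 3, and 0 to 1 with single arrays left out.

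The sign held under all alternatives run for 20 of the 28 members and turned for 8 with differences near 0. With arrays centred on the median Plxnb2 was -0.09, Plxnd1 -0.02 and Sema4a -0.04. With array weights Plxnb1 was 0.00 and Sema4a -0.08, and with probe sets averaged Plxnb1 was 0.19. Without wild-type arrays 1 and 3 Plxnb2 was -0.02, Sema4a -0.56 and Sema6a -0.22. With single arrays left out the ranges were -0.16 to 0.83 (Plxna2), -0.39 to 0.12 (Plxnb1), -0.02 to 0.08 (Plxnb2), -0.11 to 0.30 (Plxnd1), -0.22 to 0.54 (Sema3g), -0.30 to 0.45 (Sema4a), -0.44 to 0.51 (Sema4g) and -0.37 to 0.43 (Sema6a). The cause was not tested.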
